A study of Mus musculus with 9 samples.

Results

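The genes described here are 10 receptors and partners that restrain T cells or balance that restraint: Ctla4, Pdcd1, Lag3, Havcr2, Tigit, Cd96, Cd226, Cd160, Btla and Cd200. They were found by gene symbol in the deposited count matrix, where each of the 10 had exactly 1 entry among 49510 genes, and all 10 passed the filter on low counts. RNA was sequenced from regulatory T cells (Tregs), CD4 T cells that suppress immune responses, of Foxp3-GFP transgenic mice, in which a fluorescent protein marks cells expressing the Treg transcription factor Foxp3. The mice were 8 weeks old and had undergone cardiac ischemia/reperfusion injury, in which blood flow to heart muscle is stopped and restored, 3 days before the cells were taken. The 3 groups are Tregs of the injured heart, of the spleen and of the mediastinal lymph node (MLN) that drains the heart, with 3 libraries each. The reporter and the injury are common to all 3 groups, no uninjured group was analysed here, and whether an organ's libraries are separate animals or pools is not in the labels. The p-values therefore measure only the spread between these libraries, part of which may be technical.

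T cells are switched on by the antigen receptor together with costimulatory receptors such as CD28, and co-inhibitory receptors damp that signal by competing for the same ligands or by recruiting phosphatases to the receptor. The family falls into groups by ligand: CTLA-4 competes with CD28 for CD80 and CD86, PD-1 binds PD-L1 and PD-L2, and TIGIT, CD96 and the activating receptor CD226 share the ligand CD155. BTLA and CD160 share the ligand HVEM, TIM-3 and LAG-3 are checkpoints with several ligands, and CD200 is itself a ligand, for the myeloid receptor CD200R1. Tregs carry CTLA-4 and TIGIT as part of their suppressive programme.

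Total counts ranged from 156194012 to 267520538 per library, and the 10 genes together took 0.152% to 0.435% of them. Levels are in CPM, counts scaled to a total of 1e+06 per library after normalization, and 3 counts, the upper limit that a count of 0 allows, correspond to 0.0104 to 0.0193 CPM, a limit that covers counting error only. Within each organ 1 library stood apart from its partners (spleen 3, MLN 3 and heart 2), with a share of B2m counts between 1.20% and 1.55%, against 2.38% to 2.71% in the other 6 libraries. Foxp3, the gene that the reporter follows, was at 31.2, 32.6 and 187 CPM in the spleen, at 42.4, 41.8 and 46.3 CPM in the MLN, and 8.77, 38.0 and 0.240 CPM in the heart. The near absence of Foxp3, which is among the 7 Treg markers read here, goes against the Treg label of heart 3. Heart 1, at 8.77 CPM, was also below every lymphoid library. The other markers, named after their values were seen, were mixed. Ikzf2 was highest in heart 3, at 293, 229 and 350 CPM in heart libraries 1, 2 and 3, and Gpr83 was lowest in heart 1. Il2ra, Ikzf4, Izumo1r and Capg were lowest in heart 3. The summed level of the 7 was 733, 667 and 582 CPM in heart libraries 1, 2 and 3. The differences of Ctla4, Cd96, Btla, Cd160, Havcr2 and Cd200 are also given without heart 3. The T cell gene Cd3e was present in all 9 libraries, at 97.8 to 155 CPM in the spleen, 53.8 to 79.0 in the MLN and 29.3 to 50.1 CPM in the heart. The heart libraries also held transcripts of other cells, whose levels are given beside some of the 10 genes. In such bulk samples, fewer cells of a type and less RNA per cell cannot be told apart.

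None of the 10 genes passed the threshold of an adjusted p below 0.05 in any comparison by edgeR's quasi-likelihood test with Benjamini-Hochberg adjustment over the 16609 genes tested. In the heart against the spleen 0 of 10 were called, where 0.789% of all genes tested were (0.614% higher and 0.175% lower). In the heart against the MLN 0 of 10 were called, where 1.38% of all genes were (1.10% higher and 0.283% lower), and in the MLN against the spleen 0 of 10, where 0% were. At an unadjusted p below 0.05, the same test listed 2 of the 10 in the heart against the spleen (13.6% of all genes), 3 in the heart against the MLN (15.5%) and 0 in the MLN against the spleen (5.75%). DESeq2 and limma-voom each called 1 of 10 members, Cd96, in both heart comparisons. DESeq2 called 11.3% of all genes in the heart against the spleen and 13.2% against the MLN, and limma-voom 6.87% and 8.02%, so 1 of 10 is near the share of all genes. Neither called a member in the MLN against the spleen, where DESeq2 called 4.73% and limma-voom 0.0181% of all genes. The heart comparisons share the heart libraries, so they are not independent of each other.

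Without a call, the libraries of the organs separated for some genes. The 3 heart libraries did not overlap the 3 spleen libraries for 4 of the 10 genes, Havcr2 higher and Cd96, Cd160 and Btla lower, where 19.3% of all genes tested did not overlap (12.4% higher and 6.90% lower). They did not overlap the 3 MLN libraries for 4 genes, Cd96, Cd160, Btla and Ctla4, all lower, where 26.2% of all genes did not overlap (14.9% higher and 11.2% lower). The MLN and the spleen overlapped for all 10 genes, where 9.08% of all genes did not overlap (4.52% higher and 4.56% lower). The median log2 difference of the 10 genes was -0.83 in the heart against the spleen, -0.46 in the heart against the MLN and 0.08 in the MLN against the spleen, beside 0.02, 0.12 and 0 over all genes tested.

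**Figure D1:**
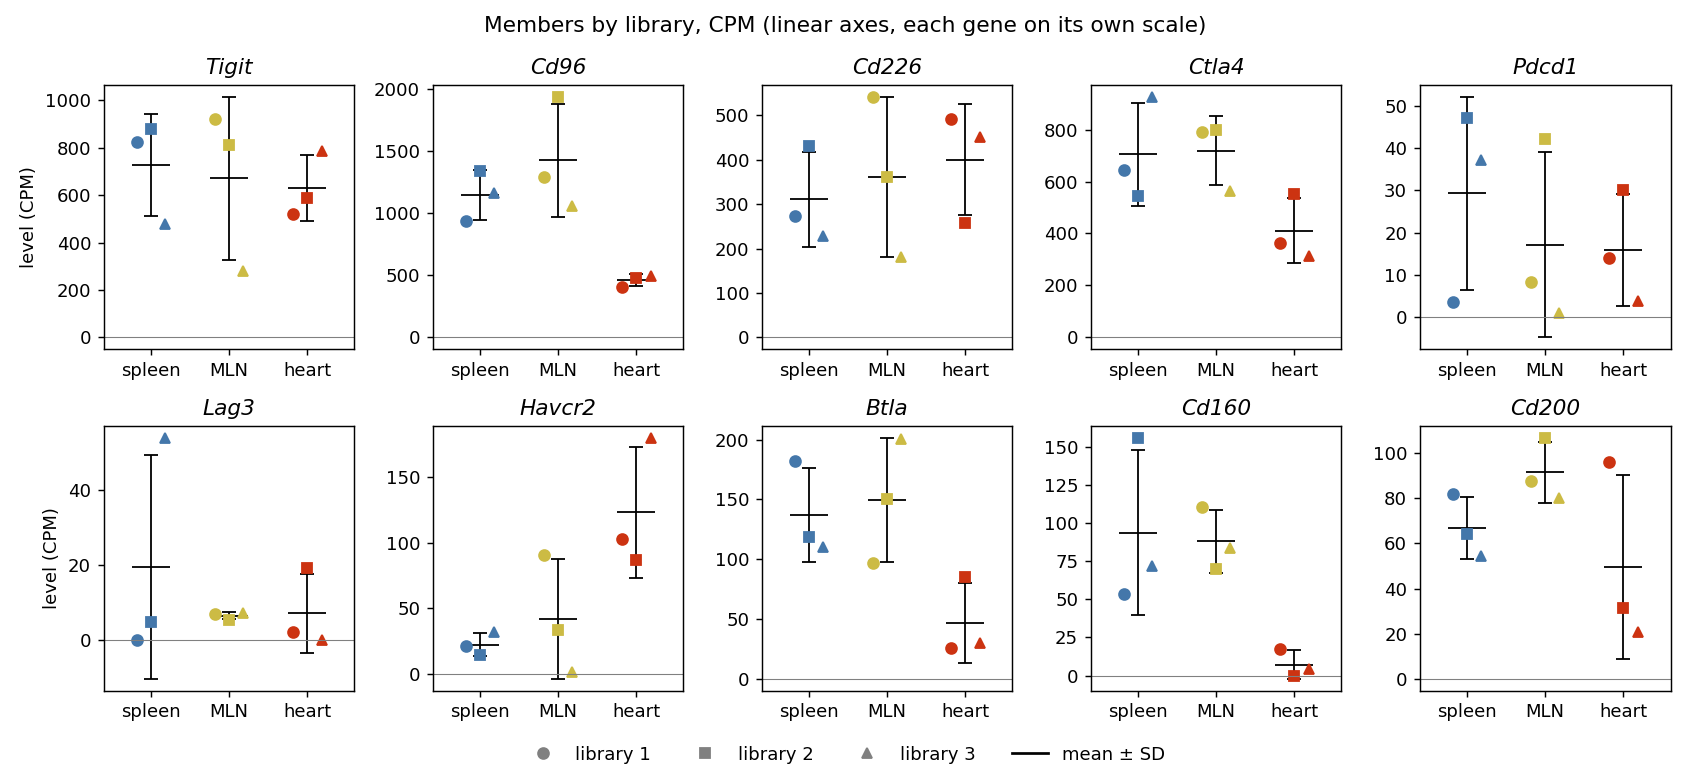
Level of each of the 10 genes in the 9 libraries, in CPM on linear axes that differ between genes, by organ; each point is 1 library, its shape the library number, and bars are mean ± SD (n = 3). The heart libraries lie below all 6 others for Cd96, Cd160 and Btla, and above all spleen libraries for Havcr2.

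For the 4 genes whose heart libraries stood clear of the spleen libraries, the 250 bases before a RefSeq transcription start are shown here, so that the reader sees the sequence next to which these differences were measured. They were read from RefSeq for GRCm38.p6, the assembly that mm10 names, and each is written 5′ to 3′ on the gene's own strand. The window is chr16:46120249-46120498 on the minus strand for Cd96, chr3:96829352-96829601 on the minus strand for the outer start of Cd160, chr16:45224087-45224336 on the plus strand for Btla and chr11:46454681-46454930 on the plus strand for Havcr2. Capitals mark exact matches on either strand to 6 letter patterns: GGAAA (NFAT), TGTGGT (RUNX), TTCNNNGAA (STAT-type GAS element), TGANTCA (AP-1), CTTTGA (TCF/LEF) and GTAAACA (forkhead).
Cd96: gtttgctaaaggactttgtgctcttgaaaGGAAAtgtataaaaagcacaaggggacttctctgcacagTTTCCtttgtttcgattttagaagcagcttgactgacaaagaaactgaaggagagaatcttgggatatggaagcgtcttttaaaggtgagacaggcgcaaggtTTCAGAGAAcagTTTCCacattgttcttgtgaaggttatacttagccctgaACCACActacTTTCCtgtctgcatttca
Cd160: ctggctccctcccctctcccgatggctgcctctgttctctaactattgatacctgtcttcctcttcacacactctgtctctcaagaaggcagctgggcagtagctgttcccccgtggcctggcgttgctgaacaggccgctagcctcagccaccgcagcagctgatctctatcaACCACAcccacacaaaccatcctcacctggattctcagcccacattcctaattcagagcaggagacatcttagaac
Btla: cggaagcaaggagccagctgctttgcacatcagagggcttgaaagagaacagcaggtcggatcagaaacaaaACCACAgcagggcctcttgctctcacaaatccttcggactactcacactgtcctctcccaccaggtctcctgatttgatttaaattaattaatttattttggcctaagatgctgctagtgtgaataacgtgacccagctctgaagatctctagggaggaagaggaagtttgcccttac
Havcr2: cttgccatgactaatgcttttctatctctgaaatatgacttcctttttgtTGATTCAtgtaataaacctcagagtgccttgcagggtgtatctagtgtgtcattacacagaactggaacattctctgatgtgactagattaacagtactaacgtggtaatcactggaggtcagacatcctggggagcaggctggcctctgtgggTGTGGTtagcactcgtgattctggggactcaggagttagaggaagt
Cd96 held GGAAA at 4 places, TGTGGT at 1 and TTCNNNGAA at 1, none overlapping another. Cd160 and Btla each held TGTGGT at 1 place, and Havcr2 held TGTGGT and TGANTCA at 1 place each. Of the 8 members with a window (Lag3 and Cd226 had none), 5 held TGTGGT, which 14.0% of all 32851 windows of that length held. GGAAA was also held by 5 of 8, beside 55.6% of all windows, TTCNNNGAA by 2 (7.02%), TGANTCA by 1 (6.75%), CTTTGA by 1 (13.8%) and GTAAACA by 0 (3.17%). A second RefSeq start of Cd160 is counted here, and only its window gave Cd160 a match to GGAAA, TTCNNNGAA and CTTTGA. In that window 1 match to CTTTGA overlaps the match to TTCNNNGAA. Members are counted by gene, with a match in any window enough, while the shares are of windows, so the measures differ. The matches describe letters in these windows, and genes with lower and with higher heart levels both held TGTGGT.

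Cd96 had the smallest adjusted p of the 10 genes in both heart comparisons. CD96 is an immunoglobulin-family receptor of T and natural killer cells that binds CD155, and its gene (ENSMUSG00000022657) covers chr16:46035657-46120251 on the minus strand. Its level was 939, 1341 and 1164 CPM in spleen libraries 1, 2 and 3, 1291, 1939 and 1059 CPM in the MLN, and 404, 480.4 and 493 CPM in the heart. The highest heart library stood at less than the lowest of the 6 lymphoid libraries. The heart mean of 459 ± 48.0 CPM (SD, n = 3) stood against 1148 ± 202 CPM in the spleen, a log2 difference of -1.32 (SE 0.329, adjusted p = 0.106, edgeR). Against the MLN, at 1430 ± 456 CPM (SD, n = 3), the log2 difference was -1.64 (SE 0.331, adjusted p = 0.0548, edgeR). The same differences had an adjusted p of 0.00187 and 6.03e-05 with DESeq2 and of 0.0321 and 0.0115 with limma-voom, and the call thus depends on the test, and against the MLN also on the scaling and the filter. Over 19 alternative settings the adjusted p ranged from 0.00187 to 0.530 against the spleen and from 6.03e-05 to 0.310 against the MLN. The log2 difference stayed below 0 in 19 of 19 for each. In 9 of these settings 1 library was left out, which can hardly turn a sign where the groups do not overlap. Without the 3 libraries that stand apart the log2 differences were -1.34 and -1.83 (adjusted p = 0.188 and 0.136, edgeR), and without heart 3 they were -1.38 and -1.69 (adjusted p = 0.259 and 0.162, edgeR).

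Tigit and Cd226, the other receptors of the CD155 group, did not separate the organs. TIGIT inhibits and CD226 activates, and TIGIT is the receptor of the group with the strongest binding to CD155. Tigit (ENSMUSG00000071552, chr16:43648867-43664146, minus strand) was at 824, 878 and 480.0 CPM in the spleen, 921, 813 and 278 CPM in the MLN, and 519, 589 and 785 CPM in the heart. Spleen 3 and MLN 3, which stand apart, were its lowest libraries, and the heart libraries lay within the range of the others. Its log2 difference was -0.20 (SE 0.476, adjusted p = 0.970, edgeR) in the heart against the spleen and -0.09 (SE 0.476, adjusted p = 0.974, edgeR) against the MLN. Cd226 (ENSMUSG00000034028, chr18:89176967-89272229, plus strand) was at 273, 432 and 228 CPM in the spleen, 541, 362 and 180.4 CPM in the MLN, and 491, 258 and 452 CPM in the heart. Its organs also overlapped, with a log2 difference of 0.36 (SE 0.475, adjusted p = 0.918, edgeR) in the heart against the spleen and 0.15 (SE 0.474, adjusted p = 0.952, edgeR) against the MLN. Heart 2 had the lowest Cd226 of the heart libraries, as spleen 3 and MLN 3 had in their organs.

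The ratio of 2 genes within a library does not depend on how the library is scaled. The CPM ratio of Tigit to Cd226 was 3.01, 2.03 and 2.10 in the spleen, 1.70, 2.25 and 1.54 in the MLN, and 1.06, 2.28 and 1.74 in the heart. Tigit exceeded Cd226 in all 9 libraries on this scale, which is not corrected for gene length, and the organs overlapped. The mean log2 ratio, with 1 CPM added to each gene, was 1.23 ± 0.314 in the spleen, 0.85 ± 0.281 in the MLN and 0.69 ± 0.563 in the heart (SD, n = 3). The difference was -0.54 for the heart against the spleen (exact two-sided permutation p = 0.3, n = 3 against 3), -0.16 for the heart against the MLN (exact p = 0.9) and -0.38 for the MLN against the spleen (exact p = 0.3). With 3 libraries against 3 this test cannot give a p below 0.1. The ratio of Cd96 to Cd226 was looked at after its values were seen and is given without a test. It was 3.43, 3.10 and 5.10 in the spleen, 2.39, 5.35 and 5.87 in the MLN, and 0.823, 1.86 and 1.09 in the heart, so that the 3 heart libraries lay below the other 6.

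**Figure D2:**
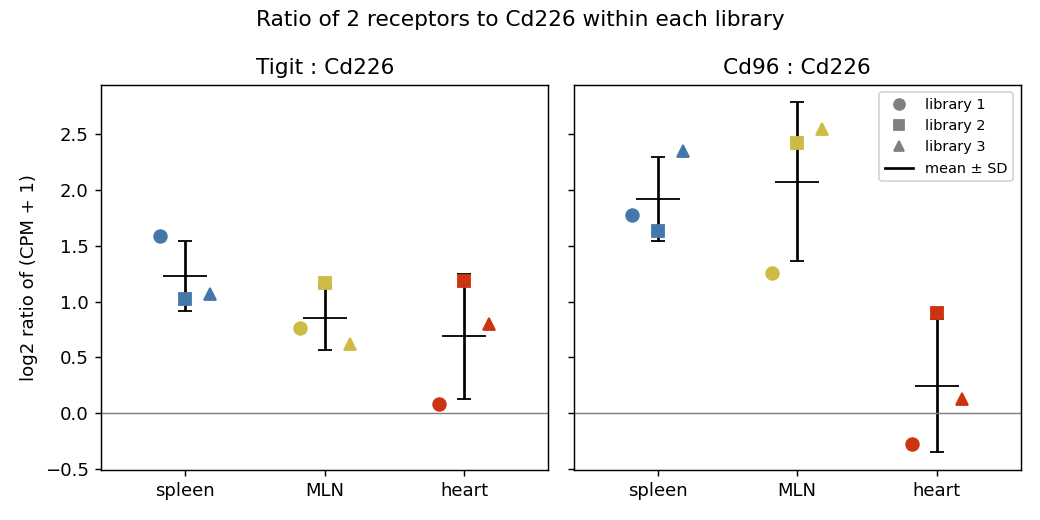
Log2 ratio of CPM + 1 within each library, by organ, for Tigit to Cd226 and for Cd96 to Cd226; each point is 1 library, its shape the library number, and bars are mean ± SD (n = 3). The Cd96 ratio lies at -0.28 to 0.89 in the heart and at 1.25 to 2.55 elsewhere, while the organs overlap for Tigit.

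Btla and Cd160, the receptors of the HVEM group, were both lower in every heart library than in every lymphoid library. BTLA is an inhibitory receptor of B and T cells, and CD160 is a lipid-anchored receptor of cytotoxic lymphocytes and some T cells. Btla (ENSMUSG00000052013, chr16:45224315-45257670, plus strand) was at 182, 119 and 110.3 CPM in the spleen, 97.0, 150.0 and 201 CPM in the MLN, and 25.4, 85.4 and 30.0 CPM in the heart. Heart 2, which stands apart, came nearest to the lymphoid libraries. The heart mean was 46.9 ± 33.4 CPM (SD, n = 3) against 137 ± 39.2 CPM in the spleen, a log2 difference of -1.55 (SE 0.548, adjusted p = 0.241, edgeR). Against the MLN, at 149 ± 51.9 CPM, the log2 difference was -1.67 (SE 0.550, adjusted p = 0.175, edgeR). Without the 3 libraries that stand apart these were -2.43 and -2.14 (adjusted p = 0.137 and 0.136, edgeR), and without heart 3 they were -1.30 and -1.43 (adjusted p = 0.476 and 0.372, edgeR). The 10 B cell markers were also lower in the heart: their summed level was 4148 to 5415 CPM in the spleen, 961 to 3397 in the MLN and 62.6 to 125 CPM in the heart, where Blk was at 0 in all 3 libraries. Of these markers 9 of 10 were lower without overlap in the heart than in the spleen and 10 of 10 than in the MLN, and Ighm was the most abundant. Within the lymphoid organs the order of Btla differed from that of the B cell sum. In MLN libraries 1, 2 and 3 it was at 97.0, 150.0 and 201 CPM where the sum was 1266, 961 and 3397 CPM. In the spleen it was at 182, 119 and 110.3 CPM where the sum was 4148, 5415 and 4637 CPM. The mean Btla levels of both organs were alike, and their B cell sums did not overlap. Of the 10 markers only 1, Ighm, was lower without overlap in the MLN than in the spleen (4.56% of all genes). Ighm was at 2636, 3852 and 3330 CPM in the spleen and 474, 516 and 670 CPM in the MLN. The part of B cell transcripts in the Btla difference was not tested.

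Cd160 (ENSMUSG00000038304, chr3:96798763-96829351, minus strand) was at 53.7, 156 and 72.1 CPM in the spleen, 110.6, 69.9 and 83.7 CPM in the MLN, and 17.7, 0 and 4.13 CPM in the heart. Heart 2 had no count, and the highest heart library was below the lowest lymphoid one. The heart mean was 7.28 ± 9.27 CPM (SD, n = 3) against 93.8 ± 54.3 CPM in the spleen and 88.1 ± 20.7 CPM in the MLN, a ratio of means of 12.9 and 12.1. The fitted log2 difference was -3.69 (SE 1.82, adjusted p = 0.435, edgeR) against the spleen and -3.60 (SE 1.81, adjusted p = 0.397, edgeR) against the MLN. Without heart 3 these were -3.41 and -3.32 (adjusted p = 0.635 and 0.570, edgeR). The SD over the heart libraries was larger than their mean. In its annotated exons 68 bases overlap Pdzk1 on the other strand, and the strand option of the counting is not given in the sources used here, so a share of its counts is uncertain. The 11 natural killer and cytotoxic markers, of which Gzma was the most abundant, summed to 98.0 to 698 CPM in the spleen, 222 to 687 in the MLN and 349 to 1433 CPM in the heart. In the heart Gzma carried much of that sum, at 269, 199 and 916 CPM. Of the 11 markers, 1 was higher and 2 were lower without overlap in the heart than in the spleen, and 4 were higher and 2 lower than in the MLN. Over all genes tested, 12.4% were higher and 6.90% lower without overlap against the spleen, and 14.9% and 11.2% against the MLN. Cd8b1, a cytotoxic T cell gene named after its values were seen, was lower in both, at 6.99, 20.9 and 32.3 CPM in the heart against 35.2 CPM or more in each lymphoid library. Klrc1, also named after its values were seen, was higher in both, at 189, 89.8 and 133 CPM in the heart. Each lymphoid library held at most 69.7 CPM of Klrc1. The part of cytotoxic cells in the Cd160 difference was not tested.

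Havcr2 was the 1 member with a higher level in every heart library than in every spleen library. It encodes TIM-3, a receptor found on activated T cells and on macrophages, dendritic cells and mast cells. Havcr2 (ENSMUSG00000020399, chr11:46454935-46481255, plus strand) was at 20.9, 14.0 and 31.7 CPM in the spleen, 90.9, 33.2 and 1.24 CPM in the MLN, and 103, 86.9 and 179.7 CPM in the heart. MLN 1 lay within the heart range and MLN 3 was the lowest of all 9 libraries, so the MLN overlapped both other organs. The heart mean was 123 ± 49.6 CPM (SD, n = 3) against 22.2 ± 8.89 CPM in the spleen, 5.54 times as high, with a log2 difference of 2.47 (SE 1.13, adjusted p = 0.392, edgeR). Against the MLN, at 41.8 ± 45.4 CPM, the log2 difference was 1.56 (SE 1.10, adjusted p = 0.610, edgeR). Against the spleen the log2 difference was above 0 in 19 of 19 alternatives, between 2.09 and 3.39, with an adjusted p from 0.0702 to 0.588. Of these, 9 left out 1 library, which can hardly turn a sign where the groups do not overlap. Without heart 3, the highest library, the log2 differences were 2.09 against the spleen and 1.18 against the MLN (adjusted p = 0.588 and 0.782, edgeR).

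Macrophage and monocyte transcripts were also higher in the heart. The 12 macrophage and monocyte markers, led by Lyz2, summed to 989 to 2482 CPM in the spleen, 232 to 756 in the MLN, and 10230, 6110 and 11478 CPM in heart libraries 1, 2 and 3. Of these markers 11 of 12 were higher without overlap in the heart than in the spleen and 12 of 12 than in the MLN, and none was at 0 throughout an organ. The heart library with the lowest marker sum also had the lowest Havcr2 of the heart, and the one with the highest sum had the highest Havcr2. MLN 1 departs from this order, with the lowest macrophage sum of all 9 libraries (232 CPM) and Havcr2 at 90.9 CPM. The spleen sums were all above the MLN sums, while mean Havcr2 was 22.2 CPM in the spleen and 41.8 CPM in the MLN, with overlap. The 8 dendritic cell markers (most abundant Flt3) summed to 8.23 to 22.6 CPM in the spleen, 11.1 to 41.3 in the MLN and 49.4 to 168 CPM in the heart. Ccl22 was at 0 in all spleen libraries, and Itgax, Clec9a and Siglech in all MLN libraries. The 8 mast cell markers (most abundant Cpa3) summed to 4.77 to 44.5 CPM in the spleen, 6.44 to 60.9 in the MLN, and 8293, 5386 and 49.6 CPM in heart libraries 1, 2 and 3. Havcr2 was highest in heart 3, where the mast cell sum was the lowest of the heart. The part of these cells in the Havcr2 difference was not tested.

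**Figure D3:**
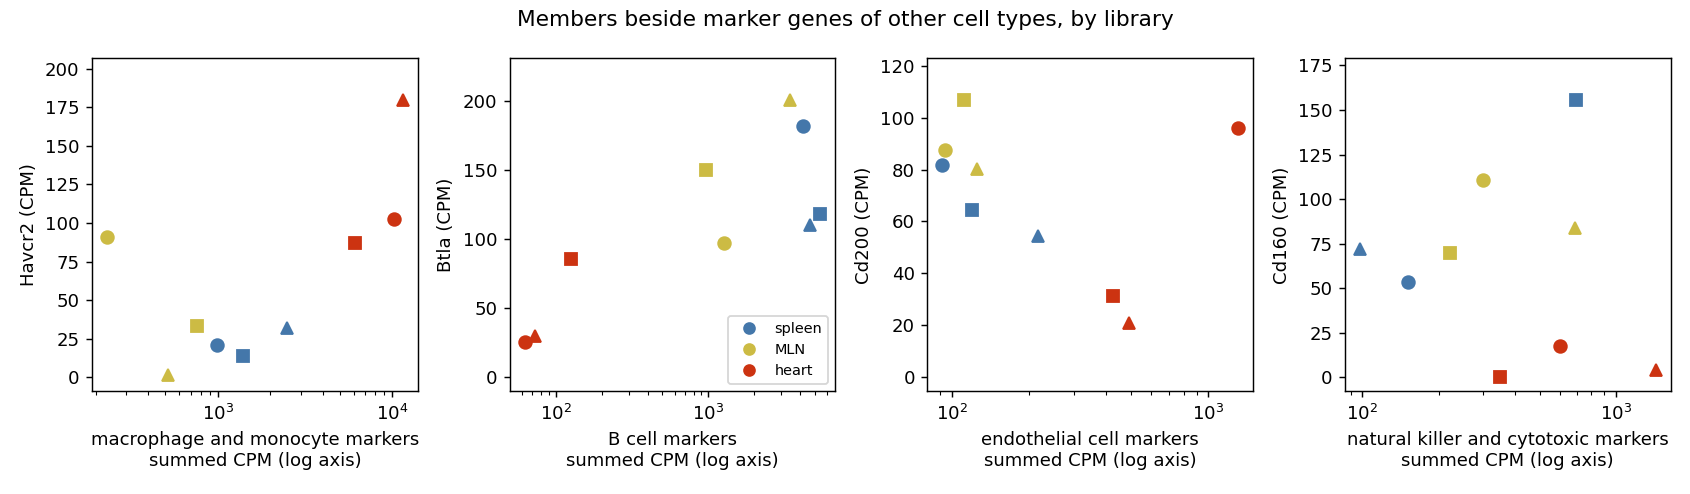
Summed CPM of marker genes (x, log axis) and the CPM of a member (y, linear axis) for macrophage markers with Havcr2, B cell markers with Btla, endothelial markers with Cd200 and cytotoxic markers with Cd160; each point is 1 library, colours are organs and shapes library numbers. The heart libraries have the highest macrophage sums (6110 to 11478 CPM) and the lowest B cell sums (62.6 to 125 CPM), and MLN 1 has high Havcr2 with a macrophage sum of 232 CPM.

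Ctla4 was among the most abundant members in every organ. CTLA-4 is a suppressive molecule that Tregs express constitutively and that removes CD80 and CD86 from antigen-presenting cells. Ctla4 (ENSMUSG00000026011, chr1:60887000-60915832, plus strand) was at 644, 545 and 926 CPM in the spleen, 793, 798 and 564 CPM in the MLN, and 363, 552 and 315 CPM in the heart. Heart 2 lay just under MLN 3 and above spleen 2, so the heart overlapped the spleen and not the MLN. The log2 difference was -0.78 (SE 0.352, adjusted p = 0.383, edgeR) in the heart against the spleen and -0.81 (SE 0.353, adjusted p = 0.319, edgeR) against the MLN. Without heart 3 these were -0.62 and -0.65 (adjusted p = 0.626 and 0.531, edgeR). The CPM ratio of Ctla4 to Cd28, its costimulatory counterpart, was 2.22, 2.07 and 3.55 in the spleen, 3.71, 3.58 and 3.97 in the MLN, and 2.00, 1.85 and 1.74 in the heart. The heart ratios were the 3 lowest of the 9. The ratio of Ctla4 to Icos, another costimulatory receptor of the family, was 1.20, 1.02 and 2.53 in the spleen, 0.491, 0.882 and 1.22 in the MLN, and 0.168, 0.413 and 0.270 in the heart. These were again the 3 lowest, and Icos itself was at 1554 ± 528 CPM in the heart, 994 ± 582 CPM in the MLN and 479 ± 98.0 CPM in the spleen (SD, n = 3). Other ratios of Ctla4 did not place all 3 heart libraries lowest. The ratio of Ctla4 to Il2ra, the high-affinity interleukin-2 receptor gene, was 2.63, 1.42 and 2.21 in the spleen, 1.20, 1.52 and 1.20 in the MLN, and 1.36, 3.27 and 1.96 in the heart, where heart 2 was the highest of all 9 libraries. The ratio of Ctla4 to Cd226 was 2.36, 1.26 and 4.06 in the spleen, 1.46, 2.20 and 3.13 in the MLN, and 0.739, 2.14 and 0.697 in the heart. Heart 1 and heart 3 were the lowest of all 9 libraries, and heart 2 lay inside the lymphoid range. These 4 ratios were looked at after the values were seen and have no test.

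Pdcd1 was low and uneven within every organ, and Lag3 was low throughout and uneven in the spleen and the heart. PD-1 and LAG-3 are checkpoint receptors that rise on T cells after repeated stimulation. Pdcd1 (ENSMUSG00000026285, chr1:94038305-94052553, minus strand) was at 3.51, 47.1 and 37.2 CPM in the spleen, 8.26, 42.1 and 0.993 CPM in the MLN, and 13.9, 30.0 and 3.78 CPM in the heart. Each organ held both a low and a high library, so all 3 organs overlapped. The log2 differences were between -0.88 and -0.11 with adjusted p of 0.943 or more (edgeR). Lag3 (ENSMUSG00000030124, chr6:124904361-124911705, minus strand) had 0, 990 and 15555 counts in the spleen, 1445, 1194 and 1870 counts in the MLN, and 396, 4811 and 0 counts in the heart. In CPM this was 0, 4.68 and 53.8, then 6.94, 5.38 and 7.23, then 2.22, 19.2 and 0. The highest library of the spleen and of the heart were those that stand apart, and the MLN was even. Its log2 difference was -1.45 (SE 2.58, adjusted p = 0.957, edgeR) in the heart against the spleen and 0.13 (SE 2.53, adjusted p = 0.994, edgeR) against the MLN. Without spleen 3 the first became 1.61, and without heart 2 the second became -2.56, so 1 library set the direction of each.

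Cd200 (ENSMUSG00000022661, chr16:45382135-45409053, minus strand) encodes the ligand of an inhibitory receptor on myeloid cells and is also expressed by endothelial cells. It was at 81.9, 64.4 and 54.4 CPM in the spleen, 87.6, 107 and 80.4 CPM in the MLN, and 96.1, 31.4 and 20.9 CPM in the heart. Heart 2 and heart 3 were the lowest of all 9 libraries, while heart 1 lay among the MLN libraries. The log2 difference was -0.43 (SE 0.560, adjusted p = 0.914, edgeR) in the heart against the spleen and -0.89 (SE 0.563, adjusted p = 0.547, edgeR) against the MLN. Without heart 3 these were -0.071 and -0.53 (adjusted p = 1 and 0.769, edgeR). The 9 endothelial markers (most abundant Pecam1) summed to 91.8 to 217 CPM in the spleen, 94.3 to 125 in the MLN, and 1305, 423 and 491 CPM in heart libraries 1, 2 and 3. Kdr, Emcn and Cldn5 were at 0 in all spleen libraries, and Tie1, Emcn and Cldn5 in all MLN libraries. Heart 1 had both the highest endothelial sum and the highest Cd200 of the heart, and the part of endothelial transcripts in its Cd200 level was not tested.

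Between the lymphoid organs no member differed beyond the spread. The log2 differences of the MLN against the spleen ran from -1.58 for Lag3 to 0.91 for Havcr2, each with an adjusted p of 1 (edgeR). Cd96 was at 0.32, Cd200 at 0.45 and Ctla4 at 0.03 on this scale.

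Levels of different genes were compared as CPM per kilobase of annotated exon. Tigit was the most abundant member in all 3 organs, at 791 ± 235 in the spleen, 730 ± 375 in the MLN and 687 ± 150 in the heart (SD, n = 3). Cd96 came after it in each, at 526 ± 92.4, 655 ± 209 and 210 ± 22.0, and Ctla4 came next, at 303 ± 84.8, 308 ± 57.2 and 176 ± 53.9. Tigit and Cd96 did not differ beyond their spread in the MLN, nor did Cd96 and Ctla4 in the heart. Cd226 followed in each organ, at 63.6, 73.9 and 81.8. The order of the remaining 6 genes differed between organs. Cd160 ranked 6 of 10 in the spleen and in the MLN, at 35.5 and 33.3, and last in the heart, at 2.76 ± 3.51. Havcr2 ranked last in the spleen, at 8.16 ± 3.27, 8 of 10 in the MLN, at 15.4 ± 16.7, and 5 of 10 in the heart, at 45.2 ± 18.2. Btla was at 40.3, 44.0 and 13.8, Cd200 at 20.1, 27.6 and 14.9, Pdcd1 at 15.2, 8.88 and 8.24, and Lag3 at 9.23, 3.09 and 3.39. Among these lower genes neighbours in the order had overlapping spreads, and no test was made of the ranks.

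T cell transcripts took a smaller share of the heart libraries, which bears on how the members are read. The 10 T cell markers, led by Trbc2, summed to 5090 to 6134 CPM in the spleen, 5494 to 6965 in the MLN and 2508 to 3484 CPM in the heart, with 0 of 10 called in either heart comparison. The 7 Treg markers, led by Ikzf2, summed to 2049 to 2462 CPM, 1776 to 3096 CPM and 582 to 733 CPM. Of these 7, 1 was called lower in the heart against the spleen and 2 against the MLN. Of all genes 0.175% and 0.283% were called lower. Ikzf2 was called in both (adjusted p = 0.0492 and 0.0344, edgeR). The median log2 differences of the 7 were -2.31 and -1.48, beside -0.91 and -0.86 for the 10 T cell markers. Markers of fibroblasts (8 genes, led by Dcn) summed to 2514 to 19296 CPM in the heart, of neutrophils (7, S100a9) to 693 to 3883 CPM and of cardiomyocytes (7, Mb) to 115 to 422 CPM. In the lymphoid organs those 3 sums were at most 16.4, 34.1 and 1.90 CPM. Members were therefore also expressed per 100 counts of 6 T cell receptor and signalling genes (Cd3d, Cd3e, Cd3g, Cd247, Lat and Lck) of the same library. Such scaling assumes that the 6 genes are equally expressed per T cell in each organ, and it moved the median log2 difference of all genes from 0.02 to 0.85 in the heart against the spleen and from 0.12 to 1.07 against the MLN.

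On this scale Ctla4 was at 22.0, 15.7 and 26.8 per 100 in the spleen, 22.6, 19.9 and 17.2 in the MLN, and 18.6, 25.9 and 20.9 in the heart. The organs overlapped. The log2 difference was 0.02 against the spleen and 0.14 against the MLN, or -0.83 and -0.94 relative to the median of all genes. Cd96 was at 32.1, 38.7 and 33.7 in the spleen, 36.7, 48.3 and 32.2 in the MLN, and 20.7, 22.5 and 32.8 in the heart. Heart 3 then reached the lymphoid range, and the log2 differences were -0.46 and -0.62 (adjusted p = 0.530 and 0.310, edgeR), or -1.31 and -1.70 relative to the median of all genes. Cd226 was at 25.2, 12.1 and 30.1 in the heart against means of 9.47 ± 2.94 in the spleen and 9.97 ± 5.03 in the MLN (SD, n = 3). The log2 differences of Cd226 were 1.24 and 1.17 (adjusted p = 0.239 and 0.222, edgeR), or 0.39 and 0.10 relative to the median of all genes. Havcr2 was at 5.26, 4.07 and 12.0 in the heart, above all 6 lymphoid libraries, which reached at most 2.59. Its log2 differences were 3.39 and 2.62 (adjusted p = 0.174 and 0.223, edgeR), or 2.53 and 1.55 relative to the median of all genes. Cd160 was at 0.908, 0 and 0.275 in the heart, still below all 6 lymphoid libraries, where the lowest was 1.74. Btla overlapped on this scale, at 2.43 ± 1.40 in the heart against 4.28 ± 1.69 in the spleen and 4.20 ± 1.72 in the MLN (SD, n = 3). Its log2 differences were -0.81 and -0.79, or -1.67 and -1.86 relative to the median of all genes. Tigit was at 26.6, 27.6 and 52.3 in the heart, 28.2, 25.3 and 13.9 in the spleen, and 26.2, 20.2 and 8.46 in the MLN. The heart then overlapped the spleen and lay just above the MLN, with log2 differences of 0.66 and 0.96 (adjusted p = 0.563 and 0.315, edgeR), or -0.19 and -0.12 relative to the median of all genes. No member was called on this scale.

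**Figure D4:**
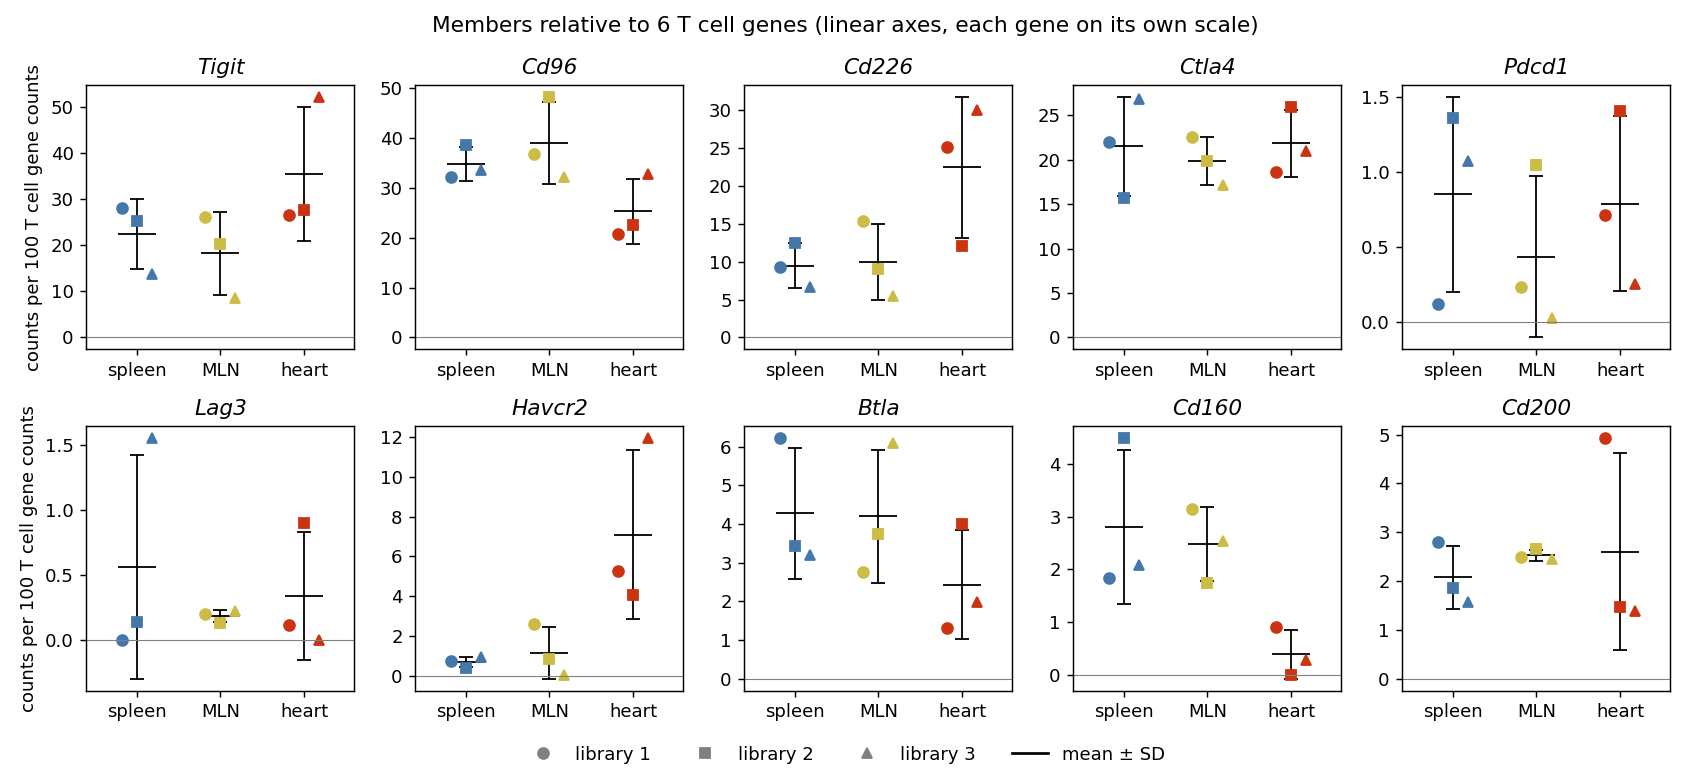
Counts of each member per 100 counts of 6 T cell genes, on linear axes that differ between genes, by organ; each point is 1 library, its shape the library number, and bars are mean ± SD (n = 3). Havcr2 lies above all lymphoid libraries in the heart (4.07 to 12.0) and Cd160 below them, while Ctla4 overlaps.

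**Figure D5:**
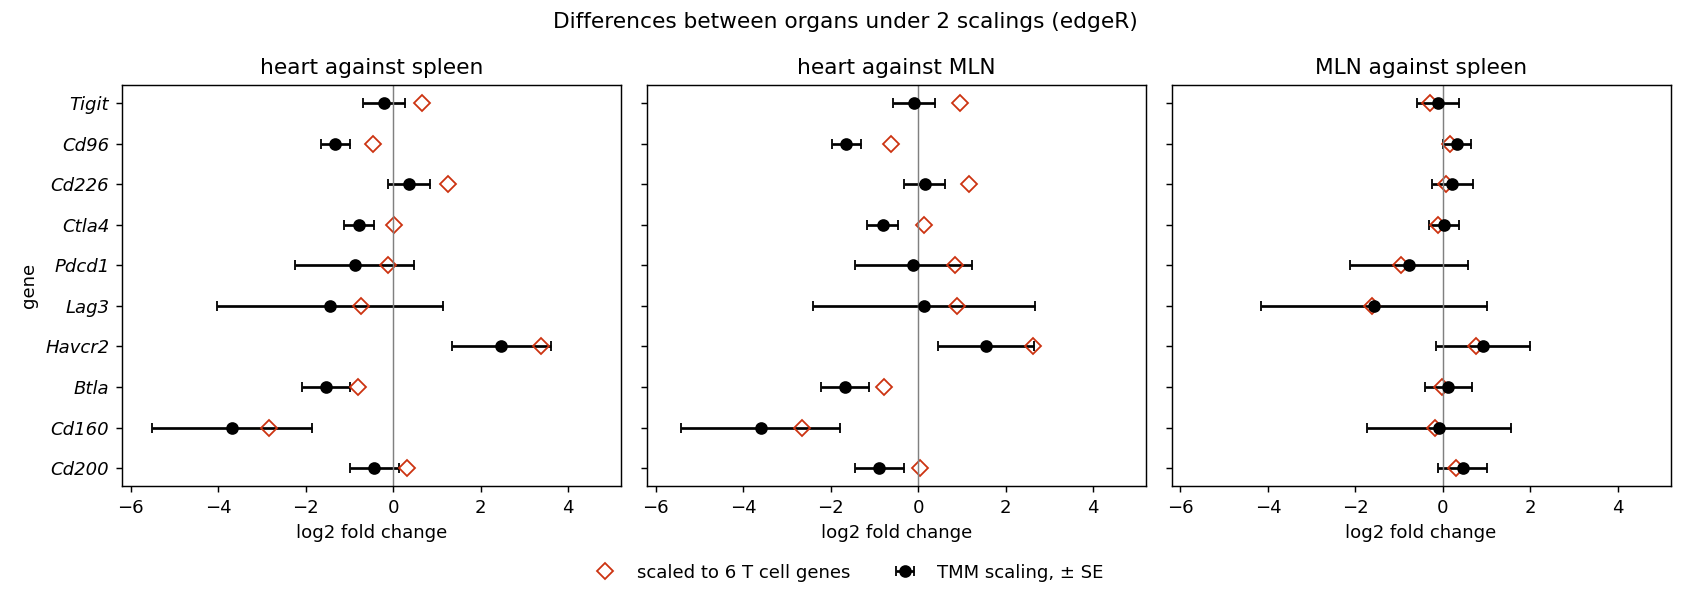
Fitted log2 differences of the 10 genes in the 3 comparisons, under trimmed-mean scaling (filled, with SE) and scaled to 6 T cell genes (open). The T cell scaling moves all genes of the heart comparisons to the right, Cd96 from -1.32 to -0.46 against the spleen.

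Genes that act with the receptors were read from fixed lists, in which no gene was called in any comparison by edgeR. Of 15 ligands and counter-receptors 14 were tested: 12 had a log2 difference above 0 and 2 below in the heart against the spleen, with a median of 0.62 and the smallest adjusted p at 0.144. Against the MLN 11 were above 0 and 3 below, with a median of 1.32 and the smallest adjusted p at 0.128. In the same comparisons 12.4% and 14.9% of all genes tested were higher in the heart without overlap. Groups did not overlap for 4 and 5 of the ligands and counter-receptors, all higher in the heart. Among these, named after their values were seen, the CD155 gene Pvr was at 28.4 ± 4.94 CPM in the heart, 14.1 ± 6.74 CPM in the spleen and 13.7 ± 3.55 CPM in the MLN (SD, n = 3). The CD80/CD86 family ligand Cd86 was at 274 ± 27.6, 150 ± 75.1 and 115 ± 27.2 CPM in the same order. The galectin gene Lgals3 was at 370.4, 583 and 907 CPM in the heart and at most 157 CPM elsewhere (adjusted p = 0.221 against the spleen and 0.128 against the MLN, edgeR). Pvr, Cd86 and Lgals3 are also expressed by cells other than T cells, and the macrophage sum was 6110 to 11478 CPM in the heart and at most 2482 CPM elsewhere. The part of those cells was not tested.

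Of 12 other inhibitory receptors, 6 were above 0 and 6 below in the heart against the spleen (median 0.07), and 10 above and 2 below against the MLN (median 1.41). Of 10 costimulatory receptors, 1 was above 0 and 9 below against the spleen (median -0.75), and 3 above and 7 below against the MLN (median -0.61). Of 14 phosphatases and adaptors that act below the receptors, 6 were above 0 and 8 below against the spleen (median -0.12), and 8 and 6 against the MLN (median 0.63). Of 11 genes for the traffic of CTLA-4 and PD-1 to and from the cell surface, 5 were above 0 and 6 below against the spleen (median -0.59), and 6 and 5 against the MLN (median 0.00). Of 15 transcription factors known to act on inhibitory receptor genes, 6 were above 0 and 9 below against the spleen (median -0.57), and 10 and 5 against the MLN (median 0.49). Within that list 1 gene was higher and 3 were lower without overlap against the spleen, and 4 and 2 against the MLN. Over all genes tested, the shares were 12.4% and 6.90% against the spleen, and 14.9% and 11.2% against the MLN. Tox, Bach2 and Nr4a3 are named after their values were seen. Tox, a factor of exhausted T cells, was at 497, 402 and 574 CPM in the spleen, 455, 506 and 543 CPM in the MLN, and 114, 366 and 184 CPM in the heart. Its log2 difference was -1.15 and -1.18 (adjusted p = 0.283 and 0.232, edgeR), beside medians of -0.91 and -0.86 for the 10 T cell markers. Nr4a3, an early target of antigen receptor signalling, was at 62.6, 158 and 136 CPM in the heart against at most 43.6 CPM elsewhere, with a log2 difference of 2.08 and 3.04 (adjusted p = 0.139 and 0.0556, edgeR). Bach2 was at 1.47, 2.29 and 1.95 CPM in the heart against 2.36 CPM or more elsewhere. The log2 difference of Bach2 was -3.34 and -3.86 (adjusted p = 0.216 and 0.140, edgeR). The heart libraries stood below all 6 others for Tox and Bach2, and above them for Nr4a3. Nr4a1 and Nr4a2 of the same list, also named after their values were seen, had log2 differences of -0.57 and 1.79, and of 1.90 and 2.70. For both genes the heart overlapped the spleen, and for Nr4a1 also the MLN. The part of other cell types in these levels was not tested.

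The gene nearest to each member in its pattern over the 9 libraries was found by the root mean square difference of centred log2 CPM, among 7362 genes with a mean of at least 10 CPM. For Cd96 it was Nt5e, which encodes the ecto-nucleotidase CD73, at 0.25 log2 units where Cd96 itself varied by 0.74. For Ctla4 it was Eef1g (0.20, own variation 0.49), for Tigit Mzt1 (0.19, 0.53), for Cd226 Sptssa (0.22, 0.52) and for Cd200 Mak16 (0.16, 0.75). The variable genes had more distant neighbours: Btla had Cep63 at 0.37, Havcr2 had Stx11 at 0.66, Cd160 had Ift80 at 0.71, Lag3 had Pgam5 at 0.85 and Pdcd1 had Strada at 0.88. Among the members themselves the nearest pairs were Tigit with Cd226 at 0.40 and Cd96 with Ctla4 at 0.47. These distances are descriptions over libraries that share depth and organ.

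Tigit, Btla, Cd200 and Cd96 lie on a stretch of 2471385 bases of chromosome 16 with 23 other tested genes. Btla and Cd96 were lower without overlap in both heart comparisons, and Tigit and Cd200 overlapped in both. Of the 23 others, 12 were below 0 in the heart against the spleen (median -0.01), with 4 higher and 1 lower without overlap. Against the MLN 15 were below 0 (median -0.34), with 4 higher and 3 lower without overlap. Over all genes tested, 12.4% were higher and 6.90% lower without overlap against the spleen, and 14.9% and 11.2% against the MLN. The single called gene of the stretch in each heart comparison was Ccdc80, named after its values were seen.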

How the data were processed

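The authors deposited raw read counts per gene for 9 libraries, 3 per organ, and all columns were used (0 left out). Per the submitters' processing notes, CASAVA 1.8.2, HISAT2 and HTSeq 0.6.0 were used with mm10. Aligner version, strand option and gene annotation are each not given in the sources used here. Sorted cells were lysed and libraries made with a SMARTer low-input kit, per the labels' protocols, so reads amplified by PCR are not independent molecules.

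The test was edgeR 4.0.16 (in R 4.3.3): filter (minimum count 10, minimum total 15), TMM scaling, 1 quasi-likelihood fit of all 9 libraries with organ as the factor (6 residual degrees of freedom), two-sided tests, Benjamini-Hochberg adjustment over 16609 genes, and calls below 0.05. The SE was derived from the F statistic. CPM, computed here, use scaled totals. Totals of 156194012 to 267520538 counts give small counting errors beside the spread between libraries (median biological coefficient of variation 101.5%), and no 2 libraries agree within sampling noise. DESeq2 1.42.0 and limma 3.58.1 (voom) were alternatives, with other scalings, filters, each library left out, both organs fitted alone and a replicate block. The fit was tested on simulated data. Ratios were compared by exact permutation tests.

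Coordinates and exon lengths are from GENCODE for GRCm38, promoter windows from RefSeq. Cd244a was matched by gene identifier, and of the 2 entries of Itgam the one with more counts was used. The members and lists were chosen with earlier results of these data known. Named genes are the members, the nearest gene of each, the most abundant gene of each marker list, Cd3e and Foxp3, and called genes of the pathway lists; others are said to be chosen after their values were seen.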

Additional observations from a re-analysis of the deposited data

How the results depend on the processing

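The spread between libraries, not counting depth, limits what 3 libraries per organ can show. Of 570 member differences under 19 alternatives, 518 kept their sign, and 4 of the 52 that turned were in the heart against the spleen. In that comparison the calls over all genes numbered 131, and 446 (404 higher, 42 lower) when scaled to T cell genes, 223 with a filter of 1 CPM, 1885 with DESeq2, 1141 with limma-voom, 292 with both organs fitted alone and 0 to 122 with 1 library left out. In the heart against the MLN they numbered 230 (183 higher, 47 lower), and in the same order 754 (702 higher, 52 lower), 369, 2199, 1332, 548 and 0 to 249, with 139 higher and 64 lower on library totals. The tops of both ranges, 122 and 249, left out a library of the organ not compared. Leaving out a heart or spleen library, at most 1 gene was called higher and 9 lower against the spleen. Leaving out a heart or MLN library, at most 42 genes were called higher and 17 lower against the MLN. In the MLN against the spleen the calls numbered 0, and 785 with DESeq2 and 3 with limma-voom. Without spleen 3, MLN 3 and heart 2, an alternative chosen after seeing the data, 3 and 4 genes were called in the heart comparisons. With the replicate number as a block, 0 genes were called in either; the numbers gave no sign of pairing, since 1 of 9 same-numbered pairs had correlated deviations over 0.1 (range -0.13 to 0.11) and 5 of 18 best matches were with the own number. The block kept the Tigit to Cd226 differences at -0.54, -0.16 and -0.38. Cd96, 1 of the 10 members, was called in both heart comparisons by DESeq2 and limma-voom, and against the MLN also with library totals (adjusted p = 0.0490, edgeR) and the 1 CPM filter (adjusted p = 0.0427, edgeR). The log2 differences that turned are these, and the cause was not tested. Scaled to T cell genes, Ctla4 was at 0.021, Tigit at 0.66 and Cd200 at 0.32 in the heart against the spleen. Against the MLN, Ctla4 was at 0.14, Pdcd1 at 0.85, Tigit at 0.96 and Cd200 at 0.036 on that scale, and in the MLN against the spleen Ctla4 was at -0.11 and Btla at -0.026. With DESeq2's size factors and with DESeq2 itself, Pdcd1 was at 0.0022 and Tigit at 0.015 in the heart against the MLN and Ctla4 at -0.019 in the MLN against the spleen. On library totals Cd226 was at -0.10 in the heart against the MLN and Ctla4 at -0.068 in the MLN against the spleen. With limma-voom, Pdcd1 was at 0.88, Lag3 at -3.79 and Tigit at 0.086 in the heart against the MLN, and Lag3 at 2.13, Havcr2 at -0.62 and Cd160 at 0.019 in the MLN against the spleen. With the block, Pdcd1 was at 0.38, Lag3 at -0.33 and Tigit at 0.083 in the heart against the MLN. Without the 3 libraries, Lag3 was at -2.46 in the heart against the MLN, and Lag3 at 1.39, Tigit at 0.016 and Btla at -0.29 in the MLN against the spleen. Leaving out 1 library, Lag3 ranged from -4.14 to 1.61 in the heart against the spleen. Against the MLN, Pdcd1 ranged from -0.96 to 1.78, Lag3 from -2.56 to 0.72, Tigit from -0.46 to 0.21, Cd226 from -0.18 to 0.56 and the Tigit to Cd226 ratio from -0.41 to 0.14 (the highest without heart 1). In the MLN against the spleen, Ctla4 ranged from -0.14 to 0.28, Lag3 from -2.16 to 1.48, Havcr2 from -0.36 to 1.48, Tigit from -0.41 to 0.26, Cd226 from -0.20 to 0.54, Cd160 from -0.37 to 0.48 and Btla from -0.15 to 0.38.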
